A study of Mus musculus with 8 samples.

Results

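Genes were compared here by how differently they responded to stretch in mouse peritoneal mesothelial cells (MCs) with and without caveolin-1. For each of 4 animals, the response of a gene was its level in the stretched culture minus its level in the static culture of the same animal, on the log2(value + 1) scale, where the value is the deposited count normalised to library size and scaled by the trimmed mean of M-values (TMM-normalised CPM). A gene met the rule used here when the responses of both CAV1-/- animals lay above, or both lay below, the responses of both WT animals. Of 13665 genes tested, 4701 met this rule, which is 34.4% of all genes tested: 2470 with both CAV1-/- responses above (18.1%) and 2231 with both below (16.3%). If the 4 responses of a gene fell in random order, a share of 0.333 would meet the rule, so the count is near that share. In the other 8964 genes the responses of the genotypes overlapped. Because the rule uses these responses, the responses of its members are a description and carry no test of their own.

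The study asked how lack of CAV1 affects the reaction of MCs to mechanical stretching. RNA was sequenced from primary MCs of 2 WT and 2 CAV1-/- animals (genotype given as Cav-1-, littermates of the B6.Cg-CAV1tm1mls/J line). From each animal, 1 confluent culture was left in static conditions and 1 was stretched for 24 h, which gave the 8 libraries analysed here, in 4 groups of 2; the study states another number per condition. The cells came from digested parietal peritoneum of a line that lacks the gene in the whole body, mice of both sexes were used, and the stretching settings are stated for human MCs only. Animals are numbered 1 and 2 within a genotype, the number carries no pairing between genotypes, and paired values below are given for animal 1 and then animal 2.

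MCs form the lining of the peritoneal cavity and are stretched by breathing and bowel movement. Caveolae are small pits of the plasma membrane, built from caveolins and cavins, that flatten when the membrane is pulled and so serve as a membrane reserve and as sensors of tension. Stretch also reaches the cell through integrins, focal adhesions and mechanosensitive channels, and on to the nucleus through YAP/TAZ, AP-1 factors and TGF-β signalling, the last of which drives matrix genes in the mesothelial-to-mesenchymal transition.

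The levels of Cav1, the targeted gene, were 764 and 275 in static WT MCs, 569.9 and 247 in stretched WT MCs, 34.5 and 18.9 in static CAV1-/- MCs, and 20.0 and 12.8 in stretched CAV1-/- MCs. Every CAV1-/- library was therefore lower than every WT library, with residual reads in each. The 8 libraries held 9777738 to 21203938 reads, recovered as whole numbers from the deposited values. Stretched cultures were sequenced more deeply than static ones, by 1.38 and 1.3 times in WT and by 1.69 and 1.89 times in CAV1-/- animals, so the depth gap also differs by genotype; its part in the results was not tested, and thinning all libraries to the shallowest kept 1899 of the 2470 genes above (76.9%) and 1706 of the 2231 below (76.5%), with 17.9% of all genes above and 16.3% below. Mesothelial markers were detected in every library, but their summed level was 3119 to 4120 in WT and 925 to 1177 in CAV1-/- libraries. Leukocyte markers summed to 5417 and 5377 in the 2 cultures of CAV1-/- animal 1 and to between 87.4 and 526 in the other 6 libraries, and their sum differed between stretched and static cultures by -0.011 to 0.14 on the log2 scale. The summed mesothelial level differed by -0.40 and -0.084 in WT and -0.10 and -0.30 in CAV1-/- animals; in such bulk cultures fewer cells of a type and less RNA per cell cannot be told apart.

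No gene passed the test of the genotype by stretch interaction, the mean CAV1-/- response minus the mean WT response, hereafter the difference in response. In limma, with animals as blocks, the lowest adjusted p was 0.342, for the pseudogene Gm12918, and the lowest for a protein-coding gene was 0.947. Without adjustment 581 genes (4.25%) had a p of at most 0.05, 374 of them with the CAV1-/- response above (2.74%) and 207 below (1.51%). With no interaction in any gene, 683 would be expected at this threshold, more than were found. With WT animal 2 left out 36 genes passed after adjustment and with WT animal 1 left out 3 did, against 0 in both fits that left out a CAV1-/- animal. Of the genes described below, Eln, Pdlim3, Igfbp3, Hal, Ctla2a, Gm12918, Gm13461, Gm21451, Gm26735 and Eif4a-ps4 passed without WT animal 2, and Gm12918 and Gm14434 without WT animal 1. DESeq2 on the recovered reads called 6 genes, among them Il1rl1, Gm13461, Gm14434 and Eif4a-ps4, and edgeR 0. With 2 animals a genotype, an exact two-sided permutation test of 1 gene cannot go below 0.333. None of the differences in response given below passed limma's test. The values after ± are standard errors (SE) from that fit, over 4 animals and moderated toward a trend over all genes. Levels are not divided by transcript length and are compared within a gene only.

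Members fell into classes by the signs of their responses. In 666 genes (4.87% of all genes tested) the stretched culture was lower than the static one in both WT animals and higher in both CAV1-/- animals. In 561 genes (4.11%) the signs were the other way round. Stretched cultures were higher in all 4 animals for 324 genes (2.37%) with the larger and 347 (2.54%) with the smaller response in CAV1-/- MCs. They were lower in all 4 for 345 genes (2.52%) with the larger and 354 (2.59%) with the smaller drop in CAV1-/- MCs. The other 2104 members had mixed or zero responses within at least 1 genotype. Most differences were small: the median difference in response was 0.28 over the genes above and -0.23 over the genes below. Of them 448 and 259, respectively, exceeded 0.5 in size, which is 18.1% of the genes above and 11.6% of those below. At the border of the rule, Xndc1 lay just inside it with responses of 0.050 and -0.086 in WT and 0.23 and 0.050 in CAV1-/- MCs, and 2700081O15Rik just outside with 0.25 and 0.0020 in WT and 0.67 and 0.25 in CAV1-/- MCs. On the other side Ndufa3 was just inside (0.36 and 0.12 in WT and 0.11 and 0.12 in CAV1-/- MCs) and Foxred2 just outside (-0.23 and -0.068 in WT and -0.42 and -0.23 in CAV1-/- MCs).

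**Figure D1:**
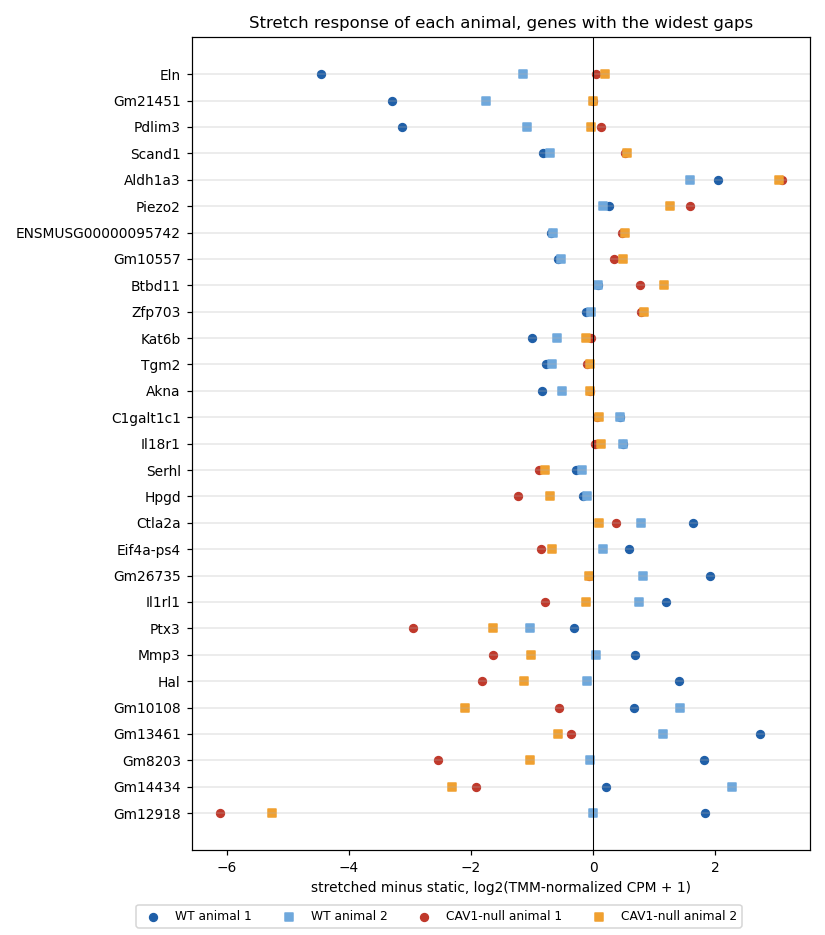
Stretch response of each animal (x axis, stretched minus static on the log2 scale of TMM-normalised CPM plus 1) for the genes with the widest gap between genotypes, in order of the difference in response; each symbol is 1 animal, blue for WT and red or orange for CAV1-/-. The 2 symbols of a genotype lie on 1 side of the other genotype's pair in every gene, as the rule requires, and Piezo2 and Aldh1a3 have CAV1-/- responses of 1.26 or more.

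Among genes that build or shape caveolae, 5 of the 11 measured met the rule from above and 2 from below, against 18.1% and 16.3% of all genes. With each animal's trend on GC content and transcript length removed 3 and 1 did, against 17.3% and 13.2% of all genes. Ptrf and Prkcdbp, genes of the cavin coat, were lower in the stretched cultures of all 4 animals, and less so in CAV1-/- MCs. Ptrf encodes cavin-1, which caveolae need to form, and had levels of 847 and 635 in static WT MCs, 513 and 535 in stretched WT MCs, 636 and 477 in static CAV1-/- MCs, and 569 and 408 in stretched CAV1-/- MCs. Its responses were -0.72 and -0.25 in WT and -0.16 and -0.22 in CAV1-/- MCs, and the difference in response was 0.29 ± 0.18. Prkcdbp (cavin-3) had responses of -0.63 and -0.38 in WT and -0.23 and -0.15 in CAV1-/- MCs, a difference of 0.31 ± 0.14. Sdpr (cavin-2) was also lower in all 4 animals, with responses of -1.18 and -0.72 in WT and -0.58 and -0.96 in CAV1-/- MCs, and overlapped between genotypes, as did Murc (cavin-4).

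Pacsin2, Pacsin3 and Ehd2, whose products bend or brace the membrane at the neck of caveolae, had opposite signs by genotype. Pacsin2 levels were 199 and 189 in static WT MCs, 147 and 178 in stretched WT MCs, 145 and 109 in static CAV1-/- MCs, and 165 and 113 in stretched CAV1-/- MCs. Stretched cultures were lower in both WT animals and higher in both CAV1-/- animals, a difference in response of 0.38 ± 0.15. Responses of Ehd2 were -0.26 and -0.14 in WT and 0.11 and 0.029 in CAV1-/- MCs and those of Pacsin3 -0.12 and -0.067 in WT and 0.029 and 0.18 in CAV1-/- MCs. The caveolins lay on the other side. Cav1 itself had responses of -0.42 and -0.15 in WT and -0.76 and -0.53 in CAV1-/- MCs, and Cav2, its partner, had 0.31 and 0.29 in WT and -0.23 and 0.12 in CAV1-/- MCs. Ehd1 and Ehd4, of the same family as Ehd2, overlapped between genotypes. Ehd1 had responses of -0.25 and -0.16 in WT and -0.21 and -0.10 in CAV1-/- MCs. Ehd4 had -0.42 and 0.043 in WT and -0.041 and 0.10 in CAV1-/- MCs. The median difference over the 11 genes was 0.20, against 0.014 over all genes tested; it was 0.00498 without WT animal 1 and 0.33 without WT animal 2.

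Of 11 genes that the study read out, Fn1 met the rule from above and Cav1 from below, against 18.1% and 16.3% of all genes. Cav1 is the targeted gene and not a mark of the mesenchymal transition, and its CAV1-/- responses come from residual reads. The other 9 overlapped, as did 65.6% of all genes. With each animal's trend on GC content and transcript length removed, neither Fn1 nor Cav1 met the rule. Fn1, which encodes fibronectin, had levels of 15923 and 13884 in static WT MCs, 9934 and 9708 in stretched WT MCs, 12498 and 22899 in static CAV1-/- MCs, and 9031 and 21206 in stretched CAV1-/- MCs. Its responses were -0.68 and -0.52 in WT and -0.47 and -0.11 in CAV1-/- MCs, lower upon stretching in every animal and least so in CAV1-/- animal 2, and the difference was 0.31 ± 0.25. It was 0.098 with that trend removed and -4.2e-15, that is 0, with quantile normalization. Tgfb1 had responses of 0.20 and 0.45 in WT and 0.081 and 0.78 in CAV1-/- MCs, higher upon stretching in all 4 animals with no separation by genotype. Il11, a cytokine of fibrosis, had 1.66 and 0.88 in WT and 1.23 and 1.96 in CAV1-/- MCs, Snai1 0.58 and 0.16 in WT and 0.45 and 0.19 in CAV1-/- MCs and Mmp2 0.55 and 0.19 in WT and 0.37 and 0.22 in CAV1-/- MCs. Ctgf responses were 0.13 and 0.20 in WT and -0.033 and 0.22 in CAV1-/- MCs, those of Acta2 -0.47 and -0.34 in WT and -0.46 and -0.15 in CAV1-/- MCs and those of Col1a1 -0.041 and -0.37 in WT and 0.18 and -0.13 in CAV1-/- MCs. Il6 had the widest scatter, 1.39 and 0.11 in WT and -1.58 and 0.25 in CAV1-/- MCs, with static levels of 28.8 and 70.0 in CAV1-/- MCs and 1.47 and 2.50 in WT MCs.

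Among mechanosensitive channel genes, Piezo2 had the widest gap. Piezo2, a cation channel that opens upon membrane stretch, had levels of 10.1 and 22.4 in static WT MCs, 12.3 and 25.1 in stretched WT MCs, 5.19 and 22.9 in static CAV1-/- MCs, and 17.6 and 56.5 in stretched CAV1-/- MCs. Stretched exceeded static cultures in all 4 animals, by 0.26 and 0.16 in WT and 1.59 and 1.26 in CAV1-/- MCs, and the difference in response was 1.22 ± 0.19. The stretched levels themselves overlapped between genotypes, and the 2 CAV1-/- animals differed at rest. In all, 5 of 12 channel genes met the rule from above and 0 from below, against 18.1% and 16.3% of all genes; the others were Pkd1, Tmem63b, Trpm7 and Trpm4, with differences between 0.14 and 0.43. Pkd1 had responses of -0.45 and 0.13 in WT and 0.26 and 0.27 in CAV1-/- MCs. With each animal's trend on GC content and transcript length removed, which left 17.3% of all genes above and 13.2% below, 3 of the 12 were above and 1 below.

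Focal adhesion genes lay above in 11 of 32 and below in 1, against 18.1% and 16.3% of all genes. The gap was widest for Vcl, which encodes vinculin, the link from talin to actin, with levels of 1012 and 1283 in static WT MCs, 635 and 974 in stretched WT MCs, 815 and 772 in static CAV1-/- MCs, and 837 and 749.7 in stretched CAV1-/- MCs. Both WT animals were lower upon stretching and both CAV1-/- animals near their static level (-0.67 and -0.40 in WT and 0.037 and -0.042 in CAV1-/- MCs), for a difference of 0.53 ± 0.14. Tln2 (talin-2) had responses of -0.42 and -0.14 in WT and 0.16 and 0.28 in CAV1-/- MCs. Tns1, encoding the adhesion scaffold tensin-1, had -0.14 and 0.10 in WT and 0.62 and 0.37 in CAV1-/- MCs, and the integrin subunit Itgav 0.23 and 0.31 in WT and 0.57 and 0.54 in CAV1-/- MCs. Filamin genes had the same order: responses of Flnc were -0.69 and -0.26 in WT and -0.027 and -0.10 in CAV1-/- MCs and those of Flna -0.57 and -0.11 in WT and -0.049 and 0.064 in CAV1-/- MCs. Itga2 was the 1 gene below, at 0.94 and 0.92 in WT and 0.72 and 0.91 in CAV1-/- MCs. The list median was 0.19, and 0.098 without WT animal 1. With the GC and length trend removed 8 were above and 2 below, against 17.3% and 13.2% of all genes, with a median of 0.12.

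Genes of the YAP/TAZ pathway lay above in 10 of 30 and below in 3, against 18.1% and 16.3% of all genes. Tead4, a DNA-binding partner of YAP, had responses of -0.56 and -0.52 in WT and -0.041 and 0.0043 in CAV1-/- MCs, and Tead1 had -0.39 and -0.17 in WT and -0.039 and 0.0018 in CAV1-/- MCs. Wwtr1, which encodes TAZ, was higher upon stretching in all 4 animals (0.19 and 0.12 in WT and 0.30 and 0.27 in CAV1-/- MCs). Amotl2, a target gene and brake of YAP, was lower in all 4, with responses of -0.74 and -0.67 in WT and -0.56 and -0.54 in CAV1-/- MCs, as was Crim1, with -0.56 and -0.41 in WT and -0.17 and -0.17 in CAV1-/- MCs. Igfbp3 ran the other way, with -0.019 and -1.28 in WT and -1.73 and -1.33 in CAV1-/- MCs. Signs within the list were thus mixed, and its median difference was 0.16, or 0.064 with the GC and length trend removed. Yap1 and the target genes Cyr61, Ankrd1 and Ctgf, which the study measured in human MCs, overlapped between genotypes. Responses of Cyr61 were -0.20 and -0.23 in WT and -0.21 and -0.17 in CAV1-/- MCs. Those of Ankrd1 were 0.13 and -0.0082 in WT and -0.21 and 0.11 in CAV1-/- MCs.

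In the TGF-β pathway 10 of 37 genes lay above and 1 below, against 18.1% and 16.3% of all genes. With the GC and length trend removed 7 and 1 did, against 17.3% and 13.2% of all genes. Among ligands, Tgfb2 had levels of 16.8 and 16.5 in static WT MCs, 12.5 and 10.3 in stretched WT MCs, 26.6 and 14.3 in static CAV1-/- MCs, and 28.0 and 20.5 in stretched CAV1-/- MCs. It was lower upon stretching in both WT animals and higher in both CAV1-/- animals, a difference of 0.80 ± 0.21, whereas Tgfb1 overlapped. Ltbp2 and Ltbp1, whose products bind fibrillin and, for the latter, store latent TGF-β in the matrix, had responses of -0.10 and -0.33 in WT and 0.24 and 0.13 in CAV1-/- MCs and of -0.19 and -0.013 in WT and 0.19 and 0.11 in CAV1-/- MCs. Of the inhibitors on the list, 3 lay above and most overlapped. Ski, a repressor of SMAD activity, had -0.38 and -0.083 in WT and 0.19 and 0.19 in CAV1-/- MCs, Ldlrad4 had -0.039 and -0.052 in WT and 0.33 and 0.28 in CAV1-/- MCs, and Smad6 had -0.64 and -0.42 in WT and -0.23 and -0.13 in CAV1-/- MCs. Bambi, a decoy receptor, was the 1 gene below (-0.0040 and -0.16 in WT and -0.44 and -0.26 in CAV1-/- MCs). The list median was 0.096, and it was 0.055 without CAV1-/- animal 2, 0.15 without WT animal 1 and 0.037 with the GC and length trend removed.

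Of 30 immediate-early factors 7 lay above and 1 below, against 18.1% and 16.3% of all genes. Among the 7 were Jund, Junb and Jun, which pair with Fos proteins to form AP-1. Jund had levels of 84.3 and 71.6 in static WT MCs, 67.2 and 67.0 in stretched WT MCs, 65.5 and 60.4 in static CAV1-/- MCs, and 87.1 and 69.6 in stretched CAV1-/- MCs, with opposite signs by genotype and a difference of 0.51 ± 0.14. Junb had responses of -0.15 and -0.093 in WT and 0.22 and 0.10 in CAV1-/- MCs, and Jun had 0.19 and 0.086 in WT and 0.42 and 0.46 in CAV1-/- MCs. Fosb was the 1 gene below, at 0.49 and 0.46 in WT and 0.29 and 0.37 in CAV1-/- MCs. The median over the list was 0.047, and it was 0.029 without WT animal 2.

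**Figure D2:**
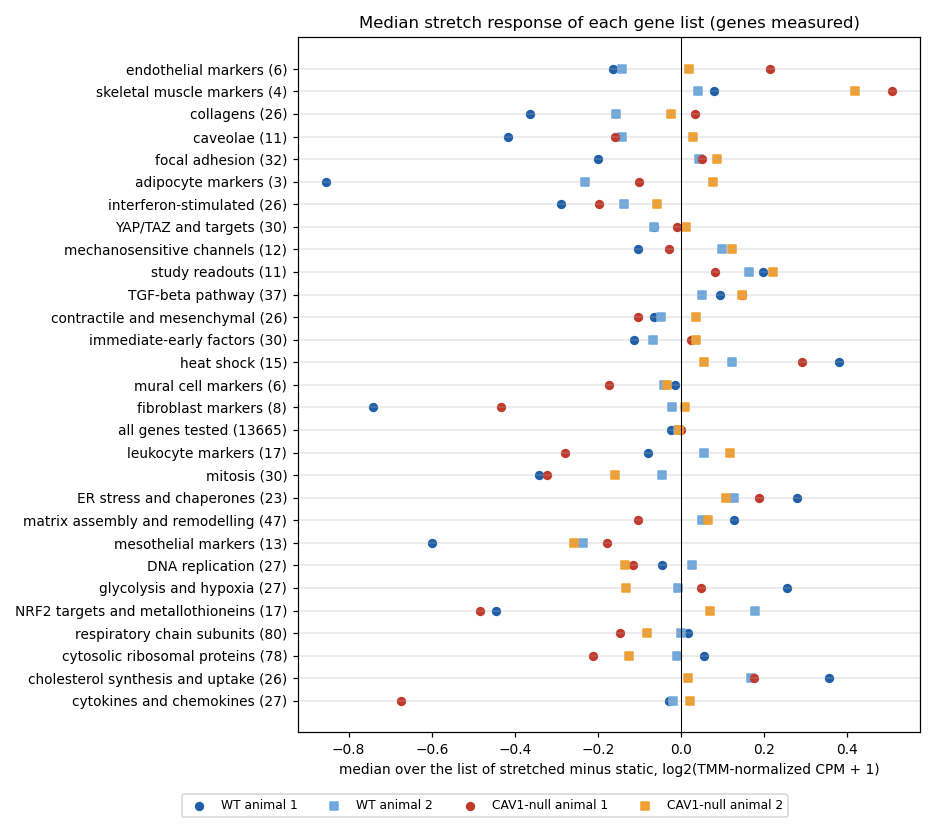
Median stretch response of each gene list in each animal (x axis, log2 scale), with lists in order of their median difference in response and the number of genes measured in brackets. Cytosolic ribosomal protein and respiratory chain lists lie near the bottom with both CAV1-/- medians below the WT ones, next to the cholesterol list, and collagens, caveolar and focal adhesion genes near the top; several lists have animals of 1 number closer together than animals of 1 genotype.

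Of 26 collagens, 6 lay above and 0 below, against 18.1% and 16.3% of all genes. With the GC and length trend removed 4 and 1 did, against 17.3% and 13.2% of all genes. The list had a median of 0.21 that was 0.073 without WT animal 1 and 0.00457 once the GC and length trend was removed. Col5a1, a chain of fibril-forming collagen V, had levels of 747 and 1295 in static WT MCs, 703 and 1129 in stretched WT MCs, 1136 and 1564 in static CAV1-/- MCs, and 1512 and 1966 in stretched CAV1-/- MCs. Stretched cultures were lower in both WT animals and higher in both CAV1-/- animals, a difference of 0.51 ± 0.13. The summed level of fibroblast markers differed between stretched and static cultures by -1.11 and -0.11 in WT and -1.07 and -0.28 in CAV1-/- animals, and its part in the matrix and adhesion results was not tested. The basement membrane chains Col4a2 and Col4a1 had responses of -0.52 and -0.15 in WT and 0.30 and 0.0055 in CAV1-/- MCs and of -0.42 and -0.091 in WT and 0.29 and 0.058 in CAV1-/- MCs. Col6a3 had the largest difference of the list, 0.92 ± 0.23, with responses of -0.12 and 0.47 in WT and 1.31 and 0.88 in CAV1-/- MCs.

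Among 47 genes of matrix assembly and remodelling, 7 lay above and 6 below, against 18.1% and 16.3% of all genes. Tnc, which encodes the injury matrix protein tenascin-C, had responses of -0.58 and 0.046 in WT and 0.42 and 0.49 in CAV1-/- MCs, and Loxl4, a collagen crosslinking enzyme, 0.16 and 0.12 in WT and 0.78 and 0.44 in CAV1-/- MCs. Mmp3 (stromelysin-1, chr9:7445822-7455975 in GRCm38, the build of all positions here) was on the other side, with levels of 6.16 and 4.60 in static WT MCs, 10.5 and 4.80 in stretched WT MCs, 11.9 and 54.3 in static CAV1-/- MCs, and 3.15 and 26.3 in stretched CAV1-/- MCs. It was higher upon stretching in both WT animals and lower in both CAV1-/- animals, although WT animal 2 hardly differed (0.68 and 0.051 in WT and -1.64 and -1.02 in CAV1-/- MCs), and the difference was -1.69 ± 0.32. Mmp13, a collagenase, had the same signs, with 0.24 and 0.27 in WT and -0.93 and -0.26 in CAV1-/- MCs. For both proteases the static CAV1-/- levels exceeded the static WT levels.

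Eln, which encodes elastin, gave the largest positive difference of all genes tested, 2.92 ± 0.95, but its levels were 86.8 and 114 in static WT MCs, 3.01 and 50.9 in stretched WT MCs, 0.247 and 0.206 in static CAV1-/- MCs, and 0.291 and 0.383 in stretched CAV1-/- MCs. Its mean responses were -2.80 in WT and 0.12 in CAV1-/- MCs, and CAV1-/- cultures were under 1 throughout and had little room to be lower. Pdlim3, an actin-associated adaptor, had the same form, with 30.5 and 64.7 in static WT MCs, 2.61 and 29.9 in stretched WT MCs, 0.577 and 0.308 in static CAV1-/- MCs, and 0.728 and 0.274 in stretched CAV1-/- MCs. Tgm2 (chr2:158116402-158146436), the crosslinking enzyme transglutaminase 2, did not have this limit, with levels of 400.2 and 67.3 in static WT MCs, 235 and 41.6 in stretched WT MCs, 590.3 and 44.8 in static CAV1-/- MCs, and 550.0 and 43.2 in stretched CAV1-/- MCs. Its responses agreed closely within each genotype, at -0.77 and -0.68 in WT and -0.10 and -0.053 in CAV1-/- MCs, although levels differed by animal number far more than by stretch; the difference was 0.65 ± 0.11.

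**Figure D3:**
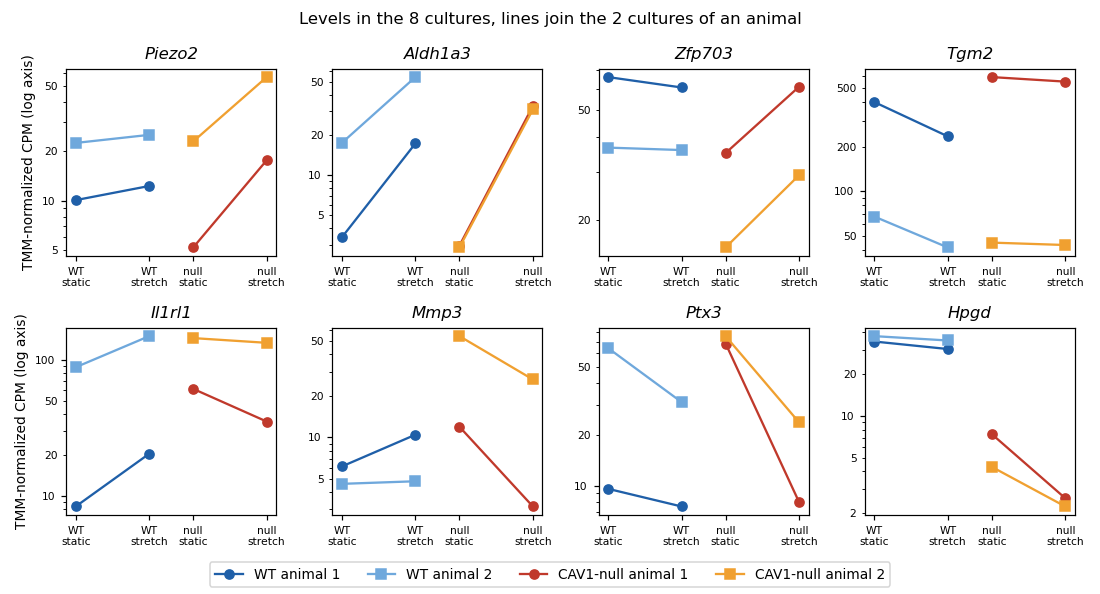
TMM-normalised CPM (y axis, log scale) of 8 named genes in the 8 cultures; each line joins the static and the stretched culture of 1 animal. Lines of the 2 CAV1-/- animals are steeper upwards for Piezo2, Aldh1a3 and Zfp703, flatter for Tgm2, and run downwards for Il1rl1, Mmp3, Ptx3 and Hpgd.

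Il1rl1, Ptx3 and Hpgd lay on the lower side. Il1rl1 (chr1:40429570-40465415), the receptor of interleukin-33, had levels of 8.32 and 88.4 in static WT MCs, 20.4 and 149.9 in stretched WT MCs, 61.2 and 145 in static CAV1-/- MCs, and 35.2 and 134 in stretched CAV1-/- MCs. Both WT animals were higher and both CAV1-/- animals lower upon stretching (1.2 and 0.75 in WT and -0.78 and -0.11 in CAV1-/- MCs), a difference of -1.42 ± 0.26, although static levels ranged widely within each genotype. It was 1 of the 6 genes that DESeq2 called (adjusted p = 0.0256) and was not called by limma or edgeR. Ptx3, a soluble pattern receptor of acute inflammation, had 9.58 and 64.5 in static WT MCs, 7.54 and 31.0 in stretched WT MCs, 68.6 and 75.9 in static CAV1-/- MCs, and 8.01 and 23.6 in stretched CAV1-/- MCs. It was lower upon stretching in all 4 animals and most so in CAV1-/- ones (-0.31 and -1.03 in WT and -2.95 and -1.64 in CAV1-/- MCs). Hpgd, which inactivates prostaglandin E2, had responses of -0.17 and -0.10 in WT and -1.24 and -0.71 in CAV1-/- MCs and was at 2.57 and 2.24 in stretched CAV1-/- MCs against 30.3 and 34.9 in stretched WT MCs.

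Of 27 cytokine and chemokine genes, 7 lay below and 2 above, against 16.3% and 18.1% of all genes. The neutrophil chemokine Cxcl1 had levels of 12.6 and 2.99 in static WT MCs, 21 and 1.23 in stretched WT MCs, 73.3 and 78.8 in static CAV1-/- MCs, and 16 and 36.0 in stretched CAV1-/- MCs, so CAV1-/- cultures were the higher ones at rest and stretched cultures of both CAV1-/- animals were lower. Ccl9, Ccl2 and Ccl7, which attract monocytes and macrophages, had responses of -0.062 and 0.20 in WT and -1.18 and -0.32 in CAV1-/- MCs, of 0.23 and -0.12 in WT and -1.27 and -0.28 in CAV1-/- MCs, and of 0.78 and 0.15 in WT and -0.74 and -0.0027 in CAV1-/- MCs. Of the CAV1-/- animals, animal 1 had the larger drop in each of these genes. Its cultures were high in leukocyte markers, and the part of those cells in the result was not tested. The median over the list was -0.22, and it was -0.026 without that animal, -0.55 without CAV1-/- animal 2 and -0.13 without WT animal 1. Interferon-stimulated genes lay above in 8 of 26 and below in 0, against 18.1% and 16.3% of all genes, led by Parp14 (-0.87 and -0.31 in WT and 0.24 and 0.31 in CAV1-/- MCs). After thinning to equal depth the counts were 4 and 3 and the list median 0.11. The list median of 0.16 was 0.066 without WT animal 1 and 0.096 without CAV1-/- animal 2.

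Genes of cholesterol synthesis and uptake lay on 1 side: 12 of 26 were below and 0 above, against 16.3% and 18.1% of all genes. Stretched cultures were higher than static ones in both WT animals, with list medians of 0.36 and 0.17, and the CAV1-/- medians were 0.18 and 0.017, the first of them close to that of WT animal 2. Idi1, the isopentenyl diphosphate isomerase, had the widest gap, with levels of 153 and 116 in static WT MCs, 269.6 and 168 in stretched WT MCs, 129 and 155 in static CAV1-/- MCs, and 152 and 149 in stretched CAV1-/- MCs. Its responses were 0.81 and 0.53 in WT and 0.24 and -0.051 in CAV1-/- MCs and its difference -0.58 ± 0.16. Hsd17b7 and Msmo1, enzymes of the late steps from lanosterol, had 0.36 and 0.33 in WT and -0.037 and 0.14 in CAV1-/- MCs and 0.68 and 0.42 in WT and 0.26 and 0.15 in CAV1-/- MCs. The median difference was -0.21, and it was -0.10 without WT animal 1 and -0.31 without WT animal 2. The counts were still 12 and 0 with the GC and length trend removed, against 13.2% and 17.3% of all genes, and 13 and 0 after thinning.

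Promoters are shown for 3 of the 12 genes below, to let the sequence be read beside the response. They were picked after the values were seen. Hmgcs1, the synthase that starts the mevalonate pathway, had responses of 0.35 and 0.17 in WT and 0.077 and 0.029 in CAV1-/- MCs. Mvd, the decarboxylase of that pathway, had 0.33 and 0.14 in WT and 0.062 and -0.13 in CAV1-/- MCs, and Lss, which forms lanosterol, had 0.28 and 0.13 in WT and 0.072 and -0.068 in CAV1-/- MCs. Each sequence is the 250 bases before the RefSeq start on the gene's own strand, from build GRCm38.p6: chr13:119690101-119690350 on the plus strand, chr8:122443423-122443672 on the minus strand and chr10:76531355-76531604 on the plus strand. Capitals mark CCAAT boxes (CCAAT or ATTGG, the letters bound by NF-Y) and, in Hmgcs1 only, a match to the sterol regulatory element (TCACNCCAC or GTGGNGTGA, bound by SREBP).
Hmgcs1: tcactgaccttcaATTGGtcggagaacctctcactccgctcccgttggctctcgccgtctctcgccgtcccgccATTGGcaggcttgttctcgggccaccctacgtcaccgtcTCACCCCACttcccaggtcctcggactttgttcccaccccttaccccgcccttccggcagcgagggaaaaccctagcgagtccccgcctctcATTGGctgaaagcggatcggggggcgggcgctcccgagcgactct
Mvd: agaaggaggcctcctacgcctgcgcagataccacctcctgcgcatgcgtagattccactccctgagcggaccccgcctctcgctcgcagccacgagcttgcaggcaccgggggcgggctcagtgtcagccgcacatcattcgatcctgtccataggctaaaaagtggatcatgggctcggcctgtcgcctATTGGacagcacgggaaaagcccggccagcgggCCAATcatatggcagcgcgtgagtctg
Lss: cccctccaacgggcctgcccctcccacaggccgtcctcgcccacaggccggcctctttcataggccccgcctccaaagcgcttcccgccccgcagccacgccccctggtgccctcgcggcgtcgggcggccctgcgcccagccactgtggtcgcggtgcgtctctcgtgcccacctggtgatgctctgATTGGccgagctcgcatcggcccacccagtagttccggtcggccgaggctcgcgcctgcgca

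Upstream windows were matched by symbol for 18 of the 26 genes and for 9892 of all genes tested. A CCAAT box on either strand was present in 16 of the 18, or 88.9%. Among the 9 matched genes below it was in 8, the same share. It was present in 40.8% of all tested genes matched, in 38.2% of the 1787 matched genes above and in 41.7% of the 1630 matched genes below. The sterol regulatory element letters were found in 1 of the 18, which is Hmgcs1 shown above, and in 1.27% of the tested genes matched. The AP-1 letters TGANTCA were in 5.65% of genes above and 5.28% of genes below, against 5.83% of the tested genes matched. The letters GGAATG, bound by TEAD factors and searched with their reverse complement, were in 11.5% and 12.2%, against 13.0%. A match is a description of the window and not of binding, and a window without one says nothing about the factor.

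Genes of the ribosome and the respiratory chain lay mostly on the lower side. Of 78 cytosolic ribosomal protein genes, 62 lay below and 4 above, against 16.3% and 18.1% of all genes. Median responses were 0.054 and -0.0103 in WT and -0.21 and -0.12 in CAV1-/- animals, and the median difference was -0.19. Rpl5, a protein of the large subunit, had the widest gap, with levels of 33.4 and 25.9 in static WT MCs, 41.1 and 30.1 in stretched WT MCs, 36.3 and 33.9 in static CAV1-/- MCs, and 30.5 and 28.7 in stretched CAV1-/- MCs and a difference of -0.49 ± 0.14. Rpl24 and Rps20 had responses of 0.12 and 0.022 in WT and -0.27 and -0.20 in CAV1-/- MCs and of 0.19 and 0.077 in WT and -0.25 and -0.14 in CAV1-/- MCs. Rpl13 went the other way, at -0.27 and -0.21 in WT and 0.086 and 0.11 in CAV1-/- MCs. Ribosomal protein genes have many processed copies in the genome, so reads may be shared among them. Of 80 respiratory chain genes, 49 lay below and 6 above, with a median of -0.13 that was -0.070 without CAV1-/- animal 1. Ndufa11, of complex I, had responses of 0.051 and 0.0037 in WT and -0.37 and -0.37 in CAV1-/- MCs, and Atp5g2, of the ATP synthase, -0.057 and -0.078 in WT and -0.42 and -0.55 in CAV1-/- MCs. Cox5b, of complex IV, lay above at -0.12 and 0.12 in WT and 0.30 and 0.49 in CAV1-/- MCs. With the GC and length trend removed, ribosomal genes were 38 below and 8 above with a median of -0.083, and respiratory chain genes 23 below and 12 above with a median of -0.028. The shares of all genes were then 13.2% below and 17.3% above.

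DNA replication genes lay below in 12 of 27 and above in 0, against 16.3% and 18.1% of all genes, with small differences (median -0.082, and -0.14 without WT animal 1 and -0.041 without WT animal 2). Prim1, the primase subunit, had responses of 0.094 and 0.15 in WT and -0.12 and -0.19 in CAV1-/- MCs, and Ccne2, the S-phase cyclin, 0.24 and 0.46 in WT and 0.0036 and 0.14 in CAV1-/- MCs. With the GC and length trend removed 6 lay below and 0 above, against 13.2% and 17.3% of all genes. Mitosis genes met the rule in 2 of 30, both below, with a list median of -0.049, and Cdk1 had 0.0073 and -0.044 in WT and -0.34 and -0.28 in CAV1-/- MCs. Of 27 glycolysis and hypoxia genes 7 lay below and 1 above, against 16.3% and 18.1% of all genes. The hypoxia gene Bnip3 had 0.29 and 0.26 in WT and -0.033 and -0.22 in CAV1-/- MCs and the glycolytic enzyme Pgk1 0.27 and 0.091 in WT and -0.064 and -0.14 in CAV1-/- MCs; the list median was -0.096, and leaving out 1 animal gave 0.013 (WT animal 1), -0.23 (WT animal 2), -0.17 (CAV1-/- animal 1) and -0.0086 (CAV1-/- animal 2).

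**Figure D4:**
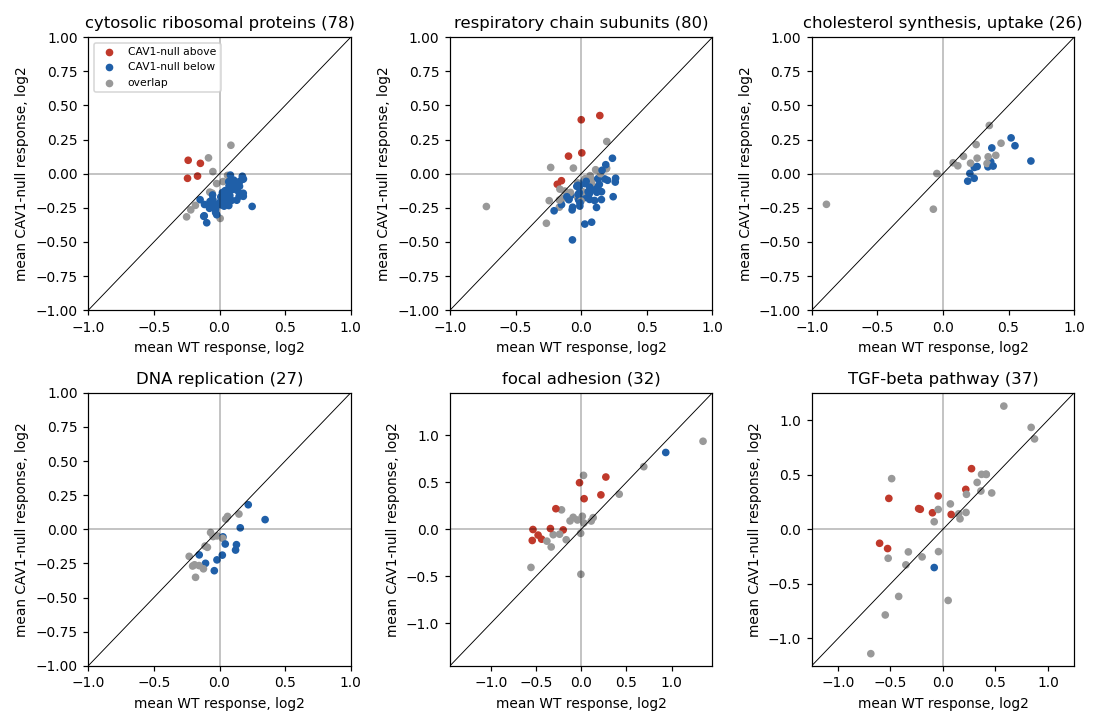
Mean response of the 2 CAV1-/- animals (y axis) against that of the 2 WT animals (x axis), log2 scale, for the genes of 6 lists; each point is a gene, red where both CAV1-/- responses lay above, blue where both lay below, grey where they overlapped, and the line marks equal responses. Ribosomal, respiratory chain, cholesterol and DNA replication genes lie mostly under the line, and focal adhesion and TGF-β pathway genes mostly over it.

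Genes with wide gaps outside these lists were of several kinds. Aldh1a3 (chr7:66390890-66427517), which makes retinoic acid, had levels of 3.43 and 17.4 in static WT MCs, 17.3 and 54.2 in stretched WT MCs, 2.97 and 2.88 in static CAV1-/- MCs, and 32.9 and 31.0 in stretched CAV1-/- MCs. All 4 animals were higher upon stretching, by 2.04 and 1.58 in WT and 3.09 and 3.05 in CAV1-/- MCs, and the difference was 1.26 ± 0.22. Zfp703, a transcriptional repressor (chr8:26977325-26981461), had 66.0 and 36.7 in static WT MCs, 60.6 and 35.9 in stretched WT MCs, 35.0 and 15.9 in static CAV1-/- MCs, and 60.9 and 29.1 in stretched CAV1-/- MCs. Its WT responses were near 0 and its CAV1-/- responses 0.78 and 0.83, a difference of 0.88 ± 0.14, and static CAV1-/- levels were below static WT levels. Scand1, a SCAN domain gene, had 14.4 and 15.5 in static WT MCs, 7.74 and 9.06 in stretched WT MCs, 6.59 and 6.27 in static CAV1-/- MCs, and 9.85 and 9.63 in stretched CAV1-/- MCs, with opposite signs by genotype and a difference of 1.3 ± 0.20.

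Btbd11 had responses of 0.075 and 0.072 in WT and 0.77 and 1.17 in CAV1-/- MCs. The histone acetyltransferase gene Kat6b had -1.0 and -0.59 in WT and -0.042 and -0.12 in CAV1-/- MCs, and Akna -0.83 and -0.51 in WT and -0.044 and -0.048 in CAV1-/- MCs. On the lower side, Hal, the histidine ammonia-lyase, had 1.41 and -0.11 in WT and -1.82 and -1.14 in CAV1-/- MCs; Ctla2a, a cysteine protease inhibitor, had 1.64 and 0.79 in WT and 0.37 and 0.10 in CAV1-/- MCs; and Serhl had -0.29 and -0.18 in WT and -0.90 and -0.79 in CAV1-/- MCs. Il18r1, an interleukin-18 receptor subunit, had 0.48 and 0.49 in WT and 0.036 and 0.12 in CAV1-/- MCs, from CAV1-/- levels under 1 in all 4 cultures. C1galt1c1, a chaperone of O-glycan synthesis, had 0.45 and 0.44 in WT and 0.070 and 0.094 in CAV1-/- MCs. None of them passed the test in all 4 animals; Hal and Ctla2a passed with WT animal 2 left out, with limma adjusted p-values of 0.0311 and 0.0366.

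Pseudogenes made up 7 of the 54 genes chosen by the naming rule, and their reads may be shared with near-identical genes. Gm12918, a processed pseudogene, had levels of 12 and 0 in static WT MCs, 45.3 and 0 in stretched WT MCs, 68.6 and 37.2 in static CAV1-/- MCs, and 0 and 0 in stretched CAV1-/- MCs. It is listed at 0 in both cultures of WT animal 2 and in both stretched CAV1-/- cultures, so the fitted difference of -6.60 depends on the pseudocount and is no bound. Eif4a-ps4 had responses of 0.59 and 0.17 in WT and -0.85 and -0.67 in CAV1-/- MCs. The pseudogenes Gm13461, Gm10108 and Gm8203, the protein-coding gene Gm14434 and the long noncoding RNA Gm26735 lay below, with differences from -3.36 to -1.42. Gm21451 was listed at 0 in all CAV1-/- cultures, and its stretched WT levels, 4.68 and 25.5, were under its static ones, 55.1 and 88.0. Gm10557 and ENSMUSG00000095742, which has no annotation here, lay above, with 0.97 and 1.17.

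Membership followed transcript length. Of 13577 genes with a length, those in the shortest decile (median longest transcript 948 bases) lay below in 31.8% and above in 9.13%, and those in the longest decile (median 8262 bases) lay above in 42.2% and below in 3.31%. The median length was 4477 bases for genes above, 2492 for genes below and 3367 for all genes tested. Median responses of the longest decile were -0.23 and 0.0096 in WT and 0.087 and 0.13 in CAV1-/- animals, so WT animal 1 and the CAV1-/- pair lay at the ends. Shares by GC content differed less: above 23.5% and below 9.50% in the decile of highest GC, against 12.8% and 19.4% in the lowest. Ribosomal protein genes had a median length of 1100 bases and respiratory chain genes 1088, whereas collagens had 6454 and focal adhesion genes 5184. Removing each animal's trend on GC content and length left 2348 genes above and 1786 below, of which 1767 and 1400 were members before; the part of length in the results was not tested beyond this.

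**Figure D5:**
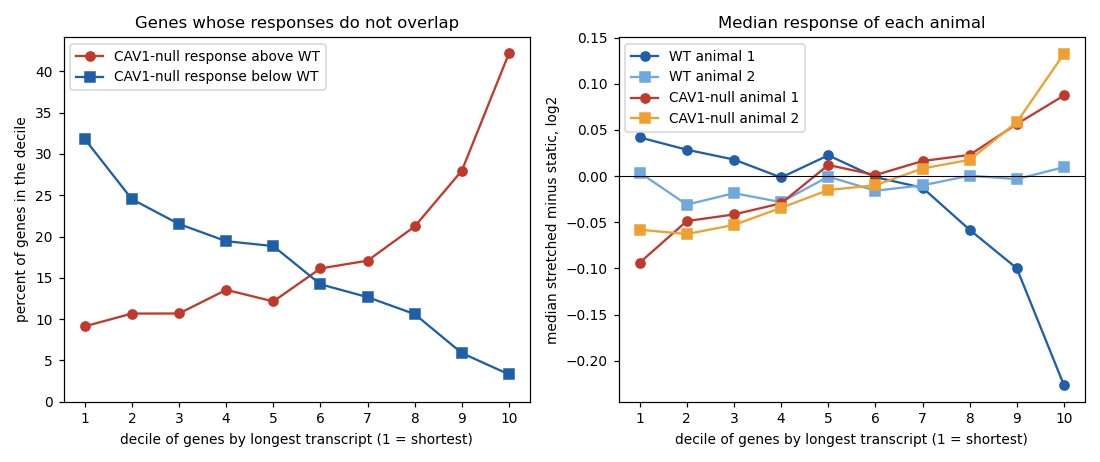
Left, percentage of genes in each decile by longest annotated transcript (x axis) whose CAV1-/- responses both lay above (red) or both below (blue) the WT responses; right, median response of each animal in the same deciles, log2 scale. The share above runs from 9.13% to 42.2% and the share below from 31.8% to 3.31% between the shortest and the longest decile, and the median of WT animal 1 runs opposite to the CAV1-/- ones.

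Animals of 1 genotype did not respond more alike than animals of 1 number. Across the 13665 genes, which are not independent, Pearson's r between responses was 0.30 for the WT pair and 0.34 for the CAV1-/- pair. It was 0.44 between the animals numbered 1 and 0.38 between those numbered 2, and 0.20 and 0.23 for the remaining pairs. Spread also differed between animals: the SD of responses was 0.45 and 0.29 in WT and 0.39 and 0.33 in CAV1-/- MCs.

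Markers of the cultured and of other cell types were counted in the same way. Of 13 mesothelial markers 2 lay above and 3 below, against 18.1% and 16.3% of all genes. Krt19, a keratin of epithelial MCs, had responses of -0.80 and -0.18 in WT and 0.49 and 0.55 in CAV1-/- MCs, and Upk3b, a surface marker of MCs, -0.94 and -0.30 in WT and -1.77 and -1.15 in CAV1-/- MCs, from levels of 13.2 and 111 in static CAV1-/- against 389 and 545 in static WT MCs. Leukocyte markers lay above in 2 and below in 3 of 17, fibroblast markers in 0 of 8, and endothelial markers above in 4 and below in 1 of 6, with a summed endothelial level of only 24.1 to 73.7. Mural cell markers were above in 1 of 6, adipocyte markers in 1 of 3 and skeletal muscle markers in 1 of 4, with 0 below. Of 26 contractile and mesenchymal genes 5 lay above (19.2%) and 4 below (15.4%), near the shares of all genes. Nonmuscle myosin Myh9 had -0.31 and 0.033 in WT and 0.28 and 0.24 in CAV1-/- MCs. Endoplasmic reticulum stress genes were above in 3 and below in 4 of 23, and Hspa5, the chaperone BiP, had 0.24 and 0.23 in WT and 0.14 and 0.11 in CAV1-/- MCs. Heat shock genes lay below in 2 of 15 and NRF2 targets in 2 of 17, with none above, against 16.3% and 18.1% of all genes.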

How the data were processed

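RNA of 8 MC cultures was sequenced. Cutadapt, RSEM on GRCm38 transcripts and TMM scaling were used by the authors for trimming, counting and normalization. The deposited signal is TMM-normalised CPM in 13687 genes that the authors kept after a filter. All values (100%, within 0.01 read) were whole multiples of 1 read, so reads were recovered. A minimum of 1 in 2 libraries left 13665 genes, and log2(value + 1) was fitted with limma 3.58.1 with the animal, which the labels give, as the block, and a genotype by stretch term. p-values were adjusted by Benjamini-Hochberg. The p-values and SEs rest on the spread of responses between 4 animals, which limma moderated toward a trend with level over all genes. On reads, edgeR 4.0.16 (quasi-likelihood test) called 0 genes and DESeq2 1.42.0 called 6. On simulated data with 200 changed genes among 13665, limma recovered 89% of those with an interaction of 1 and 100% of those with 2 on the log2 scale, with 18 false of 207 calls. The simulation gave all animals the same stretch effect in a gene apart from the genotype change, and changed only well-read genes. Real responses also scattered between animals, so these percentages do not give the sensitivity in these data.

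Named genes were the caveolar and readout genes, the 8 widest gaps in each direction among members with a mean of at least 5, the 3 widest per class, the 3 smallest p in each direction, list genes by widest gap, and those next to the border of the rule. The members, the rule and the 28 gene lists were chosen with earlier results of these data known. Lengths and GC content came from GENCODE M21 (GRCm38), with 13597 identifiers found, and promoters from RefSeq. Alternatives were other pseudocounts, filters, scalings, thinning, blocks, variance options and tools, removal of a GC and length trend, and leaving out each animal. Depth limits low genes: 3 reads are worth 0.146 to 0.308 in these units. Some genes of the lists are not reported here by name.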

Additional observations from a re-analysis of the deposited data

Results flagged for a closer look

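The following results had opposite directions by genotype in every animal, that is, stretched minus static was positive in both animals of one genotype and negative in both of the other. None passed limma's adjusted test of the interaction. Among caveolar genes these were Pacsin2 with a difference in response of 0.38, Ehd2 with 0.27 and Pacsin3 with 0.20. Genes with wide gaps and a higher response in CAV1-/- MCs were Eln (2.92), Scand1 (1.3), ENSMUSG00000095742 (1.17), Gm10557 (0.97) and Zfp703 (0.88). Eln was under 1 in every CAV1-/- culture, so its sign there rests on few reads. Genes with a lower response in CAV1-/- MCs were Gm14434 (-3.36), Gm13461 (-2.41), Gm10108 (-2.37), Mmp3 (-1.69), Il1rl1 (-1.42), Gm26735 (-1.42) and Eif4a-ps4 (-1.14). List medians with opposite signs were those of endothelial markers (0.39), immediate-early factors (0.047) and respiratory chain subunits (-0.13). The endothelial list held 6 genes at low levels. The medians were not tested.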

How the results depend on the processing

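Counts above and below the rule stayed within 1.5 times of 2470 and 2231 under every alternative that could give them, although scaling shifted the split: 2272 above and 2453 below with median-of-ratios scaling, 2158 and 2597 with quantile normalization. Membership needs 2 animals a genotype, so leaving one out gave no count. The number of genes past the adjusted threshold was 0 in most fits, 6 with DESeq2, 2 with an added term for the replicate number by stretch, and 0 to 36 over the fits that left out 1 animal, with 36 without WT replicate 2 and 3 without WT replicate 1. Genes with an unadjusted p of at most 0.05 numbered 581. There were 222 with DESeq2, 1229 with the number term, and 301 to 1142 over the fits leaving out 1 animal, 301 without CAV1-/- replicate 1 and 1142 without WT replicate 2. With no replicate block the count was 66, and 0 passed after adjustment. The causes of these shifts were not tested. The number carries no pairing between genotypes in the labels.

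Among the 54 named genes, 12 changed sign of the difference under at least 1 of 19 alternatives (20 of 1024 values), as did 13 of the 28 list medians (29 of 532). The 2 animals of a genotype set the limit on every statement, and values under 1 rest on few reads.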

Other observations

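Mitochondrially encoded protein genes were grouped after their values were seen. Of 13 measured, 10 had CAV1-/- responses below both WT responses and 0 above, against 16.3% and 18.1% of all genes. Their median difference was -0.23. Median responses were 0.44 and 0.25 in WT and -0.036 and 0.22 in CAV1-/- animals. The responses of mt-Nd1, a subunit of complex I, were 0.44 and 0.20 in WT and 0.11 and 0.15 in CAV1-/- MCs, those of mt-Co3, of complex IV, 0.49 and 1.90 in WT and -0.21 and -1.17 in CAV1-/- MCs, and those of mt-Nd3 3.73 and 1.29 in WT and -0.17 and 0.81 in CAV1-/- MCs. Their summed level was 10548 to 16796 in static and 12506 to 15209 in stretched cultures.

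Some of the longest transcripts, also picked after their values were seen, encode giant linkers of the cytoskeleton. Plec (plectin) had responses of -0.84 and 0.15 in WT and 0.45 and 0.47 in CAV1-/- MCs, Dst (dystonin) -0.98 and -0.018 in WT and 0.28 and 0.49 in CAV1-/- MCs, Syne2 (nesprin-2, which ties actin to the nuclear envelope) -1.60 and -0.22 in WT and 0.17 and 0.016 in CAV1-/- MCs, and Macf1 -0.88 and -0.11 in WT and -0.086 and 0.22 in CAV1-/- MCs. In all of these WT animal 1 had the lowest response, and WT animal 2 lay closer to the CAV1-/- animals than to WT animal 1. With WT animal 2 left out, Plec, Dst, Syne2 and mt-Nd3 passed limma's test, with adjusted p-values of 0.0326, 0.0311, 0.0116 and 0.0175. Of 13 genes under 1 in all 4 CAV1-/- cultures with a WT mean of at least 5, 8 were above and 1 below, against 18.1% and 16.3% of all genes. Levels under 1 limit how far a response can fall in CAV1-/- MCs, but drops did occur there. Pgm5, 1 of the 13, had CAV1-/- responses of -0.73 and -0.47 and overlapped between genotypes.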
